A study of Caenorhabditis elegans with 23 samples.

Results

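Young adult whole worms of the Caenorhabditis elegans mutant gld-2(q497) were fed bacteria carrying RNAi against ccf-1, and their mRNAs were compared with those of gld-2 worms on a non-targeting control RNAi named pcb19. The comparison takes its 4 libraries from the column names of the deposited tables, 2 labelled ccf-1 RNAi and 2 labelled control RNAi, out of 23 libraries in the series. All 4 worm samples carried the gld-2 mutation, ate E. coli HT115(DE3) and were sequenced in the same run, and their labels differ only in the RNAi. The libraries are PAT-seq libraries, in which reads from the 3′ ends of mRNAs run into the tail, so each gene has a read count, a count of reads with a tail and a mean tail length in nucleotides (nt). Beside these 4, the same run gave 8 libraries from gld-2 worms on RNAi labelled ccr-4, parn-1, panl-2 or caf-1. It also gave 2 libraries of embryos at the earliest cleavage stages, used only to sort genes. An earlier run gave 3 N2 (wild type) and 3 gld-2 young adult libraries. The fit that compares these also held 3 cpb-3 mutant libraries of the earlier run, which share in its estimate of the spread. The treatment protocol speaks of N2 worms, whereas the sample labels give gld-2; the groups follow the sample labels. The 2 libraries of a group are not stated to come from separate worm cultures, so every p-value below measures the spread between libraries, which may be technical.

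Cytoplasmic poly(A) tails are set by opposing enzymes. GLD-2 is the catalytic subunit of a cytoplasmic poly(A) polymerase that lengthens tails of stored germline mRNAs, and it works with RNA-binding partners such as GLD-3 and RNP-8. CCF-1 is the Pop2/Caf1-type deadenylase of the CCR4-NOT complex, which removes adenosines from the 3′ end and so represses mRNAs or starts their decay. In the worm, CCF-1 is needed for oocyte development and embryogenesis. RNAi against ccf-1 in a gld-2 mutant asks which mRNAs have longer tails when a deadenylase is targeted as well.

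Depth was uneven. The control libraries held 8.61 and 2.2 M counts (M, 1e6; replicates 1 and 2), and the ccf-1 libraries 3.68 and 6.51 M, within a range of 2.2 to 12.53 M over the 12 RNAi libraries. Reads with a tail were 62.8 and 53.6% of counts in control RNAi and 56.2 and 56.9% in ccf-1 RNAi. Ribosomal RNA rows took 18.8 and 11.4% in control against 6.6 and 7.4% in ccf-1 RNAi, and without those rows the tailed shares were 55.3 and 48.7% against 53.7 and 54.2%. Control replicate 2 is the shallowest RNAi library and has only 1.18 M tailed reads. Gene-wise tail lengths of the 2 replicates correlated with r = 0.734 in control and 0.772 in ccf-1 RNAi.

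The target was read first. The ccf-1 gene (chromosome III: 11919089 to 11920120, build ce10, as are all positions here) had 94.0 and 74.8 CPM (read counts scaled to a library total of 1e6) in control RNAi and 73.8 and 66.8 in ccf-1 RNAi. Both ccf-1 libraries lay below both controls, but the difference, -0.27 ± 0.22 (log2, SE), did not pass edgeR's quasi-likelihood test (adjusted p = 0.92). Its tail was 46.0 and 40.9 nt against 45.6 and 45.3 nt. These counts neither show nor exclude a knock-down. Reads at an RNAi target may also come from the feeding construct, and their origin was not tested. In the libraries labelled panl-2 RNAi, panl-2 had 143 and 1440 CPM against 17.1 and 15.0 in control. Under their own RNAi, ccr-4 had 902 and 1060 CPM against 5.37 and 26.2, and parn-1 88.3 and 43.8 against 12.9 and 13.1. No such excess was seen for ccf-1 under ccf-1 RNAi, and in the 8 libraries on other deadenylase RNAi labels ccf-1 had 83.8 to 159 CPM. The library labelled ccf-1 replicate 2 held 67.9 CPM of panl-2 reads with a mean tail of 23.0 nt, whereas ccf-1 replicate 1 held 26.1 CPM with 37.3 nt. The ccr-4 gene had 10.7 and 19.3 CPM in ccf-1 RNAi, between the 5.37 and 26.2 CPM of the controls. The gld-2 gene itself had 3.96 and 6.54 CPM in control and 5.13 and 4.28 in ccf-1 RNAi. The part of such reads in the results below was not tested.

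Poly(A) tails were longer across most of the transcriptome under ccf-1 RNAi. Over the 6184 genes measured in every RNAi library, the median tail was 33.76 and 31.98 nt in control and 38.11 and 38.81 nt in ccf-1 RNAi. The ccf-1 libraries ranked first and second of the 12 RNAi libraries, and the other 8 ran from 32.51 to 36.62 nt. The group means of these medians were 38.458 ± 0.495 and 32.866 ± 1.258 nt (SD, n = 2), a difference of 5.59 nt. The groups did not overlap, but the exact two-sided permutation p was 0.333, the smallest that 2 libraries against 2 can give.

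**Figure D1:**
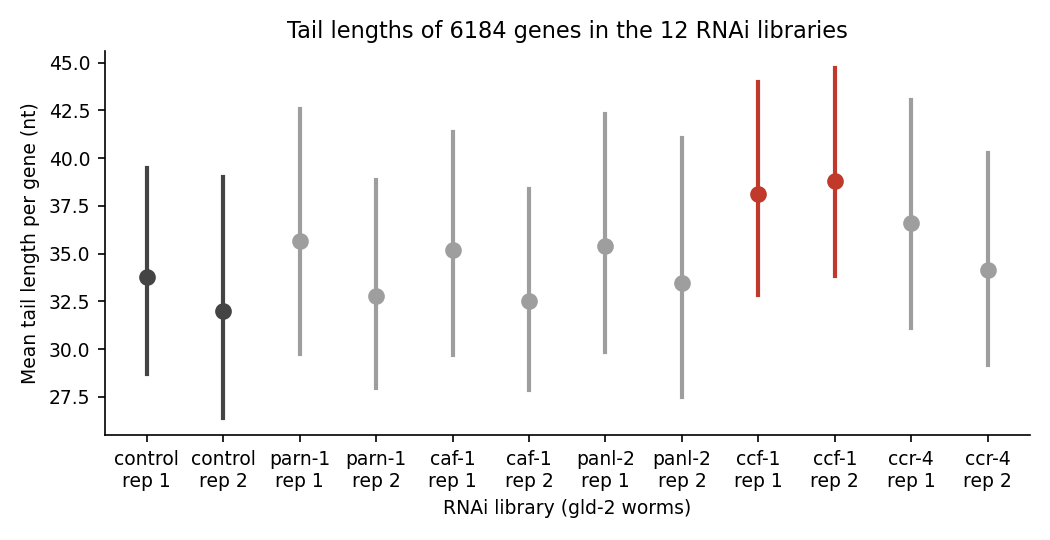
Tail length over the same 6184 genes in each of the 12 RNAi libraries: points are medians over genes and bars run from the first to the third quartile, in nt. The ccf-1 libraries (red, 38.11 and 38.81 nt) have the highest medians of the 12, and the controls are dark grey.

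By gene, 6237 were tested with limma on the tail lengths of the 12 RNAi libraries, and 930 rose, or 14.9% of those tested, at an adjusted p under 0.05 (Benjamini-Hochberg). Tails fell in 10 genes (0.16%). The estimate was longer for 5188 genes (83.2%), with a median change of 5.44 nt and quartiles of 1.62 and 9.01 nt. Both ccf-1 libraries lay above both controls in 3644 genes, or 58.4%, and below both in 264, or 4.23%. The called increases ran from 5.74 to 39.01 nt with a median of 11.36 nt. The number of calls rests on single libraries: it was 940 in all with every library, 0 without control replicate 2, 7 without ccf-1 replicate 2, 542 without ccf-1 replicate 1 and 545 without control replicate 1. The median change stayed between 4.79 and 6.28 nt in those fits. When each library was centred on its own median, so that only differences between genes were left, no gene passed (1049 of 6237 at an unadjusted p under 0.05), and the median over all genes moved from 5.44 to -0.15 nt. Centring took the same 5.59 nt off the change of every gene, which is less than the smallest called increase. By construction, therefore, all 930 genes called longer kept a longer estimate and all 10 called shorter a shorter one.

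The list of mRNAs stored in oocytes had a median tail gain above that of all genes. Of 25 tested genes on this list of oocyte and maternal mRNAs, 18 rose (14.9% of all genes did), 0 fell, and 23 had groups that did not overlap (58.4% of all genes). Their median change was 9.20 nt, against 5.44 nt over all genes tested, and it was 3.61 nt after centring. All 25 had a longer estimate, from 2.92 to 13.74 nt, and 22 of them were also longer after centring. In bulk RNA of whole worms, a mean tail length averages over germline and soma. For read levels, fewer cells of a type and less RNA per cell cannot be told apart.

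The gene oma-1 (chromosome IV: 8889073 to 8890519), which encodes a zinc finger protein needed for oocyte maturation, had tails of 24.9 and 25.8 nt in control RNAi and 36.2 and 40.5 nt in ccf-1 RNAi. Its increase of 13.03 ± 2.28 nt (SE) passed the test (limma adjusted p = 0.019) and rested on 384 to 1816 tailed reads per library. The 2 ccf-1 libraries lay more than 10 nt above both controls. The polarity gene mex-5 (chromosome IV: 13353706 to 13355519), whose protein partitions germline factors in the zygote, had 25.7 and 25.1 nt against 35.6 and 42.6 nt. It rose by 13.74 ± 2.70 nt (adjusted p = 0.020), while its level was 316 and 305 CPM against 312 and 328 CPM. The tail of mex-5 therefore differed between groups that had nearly the same read level. Its paralog mex-6 had 19.2 and 20.3 nt in control and 28.3 and 32.4 nt in ccf-1 RNAi (change 10.59 nt, adjusted p = 0.020).

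A list of translational repressors holds PUF and NANOS genes and the KH-domain genes gld-1 and mex-3. Of 14 tested, 8 rose, mex-3 among them, 0 fell, and all 14 had both ccf-1 libraries above both controls, against 14.9% and 58.4% of all genes; the list's median change was 9.12 nt (3.53 nt after centring). The list shares 4 genes with the oocyte list. The PUF gene puf-3 (chromosome IV: 13510494 to 13512121), which acts in oogenesis, had 21.2 and 22.6 nt in control and 33.5 and 36.8 nt in ccf-1 RNAi, on 610 to 3831 tailed reads. Its near-identical paralog puf-11 had 23.1 and 25.0 nt against 32.5 and 36.7 nt, and reads of the pair may be shared. The largest change on the list was in puf-12, a member of the Puf-A type, with 39.9 and 32.3 nt against 50.7 and 60.5 nt (19.50 ± 4.52 nt, adjusted p = 0.027). The Nanos gene nos-2 (chromosome II: 7065632 to 7066603), a maternal mRNA needed in primordial germ cells, had 21.5 and 22.7 nt against 30.6 and 32 nt. In none of these 4 genes did the groups overlap.

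Of 13 eggshell genes tested, 8 rose, 0 fell, and 12 did not overlap between groups, against 14.9% and 58.4% of all genes, with a median of 8.80 nt (3.21 nt after centring). Of these, 7 are also on the oocyte list. The chondroitin proteoglycan gene cpg-2 (chromosome III: 7102174 to 7103924) had 18.7 and 19.5 nt in control and 26.6 and 29.3 nt in ccf-1 RNAi, on 1598 to 10880 tailed reads. The chitin-binding gene cbd-1 had 18.7 and 19.3 nt against 27.7 and 30.8 nt, and the related proteoglycan gene cpg-1 had 21 and 22.8 nt against 29.0 and 31.8 nt. In these 3 genes the 2 replicates of a group lay close together, and the groups did not overlap. The sperm-binding receptor gene egg-1, which has a close copy in egg-2, had 21.4 and 25.2 nt against 31.7 and 33.4 nt.

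Genes of the cell cycle and of early division had a median change of 9.35 nt (3.76 nt after centring). Of 31 tested, 11 rose, 0 fell and 29 did not overlap between groups, beside the same shares of all genes, 14.9% and 58.4%. The centriole assembly gene sas-6 (chromosome IV: 13786978 to 13788684) had 25.6 and 24.4 nt in control and 37.7 and 35.4 nt in ccf-1 RNAi. Its partner gene sas-4 had 22.8 and 21.2 nt against 32.6 and 32.6 nt. For mat-1, a subunit of the anaphase-promoting complex, the tails were 32.5 and 27.6 nt against 46.7 and 46.3 nt, and for its activator fzy-1 they were 28.6 and 27.8 nt against 45.4 and 47.7 nt. The changes of mat-1 and fzy-1 were 16.43 ± 2.98 and 18.35 ± 2.84 nt (adjusted p = 0.019 for each), although control replicate 2 held only 28 and 41 tailed reads of them.

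**Figure D2:**
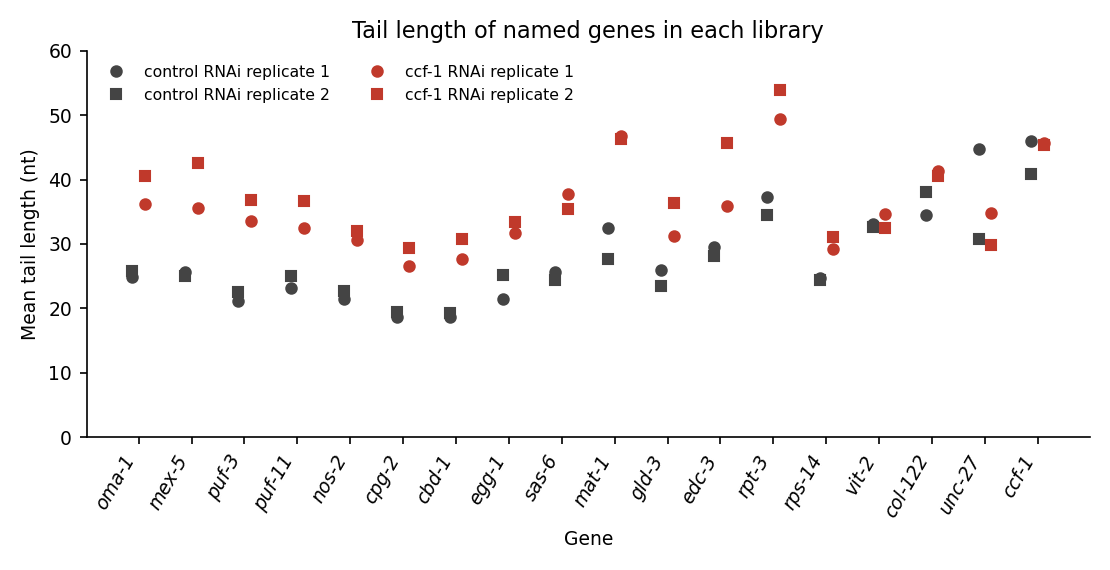
Mean tail length in nt of 18 named genes in each of the 4 libraries, with control RNAi in dark grey and ccf-1 RNAi in red, circles for replicate 1 and squares for replicate 2. For oma-1 through rps-14 both red points lie above both grey points, whereas for vit-2, unc-27 and ccf-1 the points of the 2 groups overlap.

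Genes that make, read or remove tails were examined next. Of 11 tested genes for cytoplasmic poly(A) polymerases and their partners, 4 rose (14.9% over all genes) and 0 fell, with a median of 8.96 nt (3.37 nt after centring). One was gld-3 (chromosome II: 7132601 to 7136826), the KH-domain partner of GLD-2, with 25.9 and 23.4 nt in control and 31.3 and 36.3 nt in ccf-1 RNAi. The others were cpb-1, a CPEB protein of spermatogenesis (24.0 and 23.6 against 34.1 and 29.9 nt), and the terminal nucleotidyltransferase genes cid-1 (37.5 and 38.3 against 46.8 and 48.6 nt) and pup-2 (24.0 and 28.0 against 34.0 and 38.5 nt). In all 4 the groups did not overlap. Decapping and 5′ decay factors had a median of 8.67 nt (3.08 nt after centring), and 6 of 12 rose, beside the 14.9% of all genes. Among them were the decapping enzyme gene dcap-2 (20.8 and 18.9 against 25.6 and 31.5 nt), its enhancer edc-3 (29.5 and 28.1 against 35.9 and 45.7 nt) and the Lsm ring genes lsm-4 and lsm-7. The lsm-7 tails were 28.1 and 25.9 nt in control and 39.6 and 37.0 nt in ccf-1 RNAi.

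None of the 9 tested CCR4-NOT subunits passed the test, and 6 did not overlap between groups, a share near the 58.4% of all genes. Their median change of 5.06 nt was close to that of all genes and was -0.53 nt after centring. The largest was that of ntl-3 (37.5 and 35.7 against 44.8 and 43.3 nt; adjusted p = 0.14), and the scaffold gene let-711 had 30.9 and 34.3 nt against 36.4 and 38.9 nt. The nuclease gene ccr-4 had 23.1 and 19.3 nt against 21.7 and 19.7 nt, with overlapping groups. Of the 4 other deadenylase genes, panl-3 had 39.4 and 41.8 nt against 50.3 and 50.7 nt (adjusted p = 0.060), parn-1 31.8 and 33.9 nt against 37.0 and 42.7 nt, and pde-12 28.1 and 29.8 nt against 34.5 and 48.0 nt. The fourth, panl-2, was shorter by estimate (-3.86 nt), with 32.8 and 35.2 nt against 37.3 and 23.0 nt and overlapping groups. None of these passed.

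Other germline lists had medians nearer to the whole. Of 23 meiotic prophase genes, 3 rose (rad-51, rec-8 and him-17), a share near the 14.9% of all genes. Their median of 7.61 nt (2.02 nt after centring) was 4.88 nt without ccf-1 replicate 2. The recombinase gene rad-51 had 30.3 and 25.6 nt in control and 39.2 and 39.6 nt in ccf-1 RNAi. The cohesin gene rec-8 had 28.0 and 31.5 nt against 39.4 and 40.3 nt. Of 17 P granule genes, 1 rose: meg-2, which encodes a disordered P granule protein, with 22.9 and 19.9 nt against 34.4 and 40.2 nt (adjusted p = 0.022). The P granule median was 6.44 nt (0.84 nt after centring). Of 36 sperm genes 3 rose, below the share over all genes, and their median of 5.45 nt lay at that of all genes and turned to -0.15 nt after centring. The summed level of sperm genes was 475.3 CPM in ccf-1 replicate 1 and 1237 CPM in replicate 2, on either side of the controls at 852.6 and 880.9 CPM.

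Housekeeping lists had medians on either side of the whole. Ribosomal protein genes had small but uniform changes. Of 54 tested, 0 passed, all 54 had a longer estimate (83.2% of all genes) and 53 did not overlap upwards (58.4% of all genes). Their median was 4.01 nt. That median is below that of all genes and turned to -1.58 nt after centring. The small-subunit gene rps-14 (chromosome III: 7178968 to 7179517) had 24.7 and 24.4 nt in control and 29.2 and 31.1 nt in ccf-1 RNAi, on 25344 to 71990 tailed reads (5.61 ± 1.81 nt, adjusted p = 0.060). Of 30 proteasome genes 6 rose, near the 14.9% of all genes, but 29 did not overlap upwards (58.4% of all genes). Their median was 7.46 nt (1.87 nt after centring). The ATPase gene rpt-3 had 37.3 and 34.5 nt against 49.4 and 53.9 nt, and rpt-1 had 39.5 and 35.0 nt against 48.3 and 57.0 nt. Of 29 translation factors 6 rose, also near 14.9%, and 25 did not overlap upwards, against 58.4%. Their median was 6.47 nt (0.88 nt after centring), and eif-3.G had 37.2 and 30.5 nt against 50.3 and 45.5 nt. Of 17 histone rows 1 rose (his-5; list median 7.10 nt, 1.51 nt after centring), and of 22 heat shock and stress genes 2 rose (aip-1 and hsp-4; 5.78 nt, 0.19 nt after centring). The heat shock median was 2.04 nt without control replicate 2.

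Lists of somatic genes other than the somatic gonad list had medians near or below 0. Across lists for muscle, intestine, neurons, cuticle collagens, vitellogenins and innate immunity, 1 gene of 144 tested rose, against 14.9% of all genes. That gene was col-81 (26.6 and 24.5 against 34.2 and 35.7 nt; adjusted p = 0.028). The median change was 0.30 nt in muscle, 1.30 in intestine, 0.78 in collagens, 0.65 in vitellogenins, -0.17 in neurons and -4.54 in innate immunity, and after centring all of these medians were negative, from -10.13 to -4.29 nt. These medians depend on single libraries and filters. That of the 6 immune genes ran from -7.63 nt with a higher minimum of tailed reads to -0.16 nt with none, and those of muscle (-0.36 to 0.88 nt), neurons (-0.34 to 0.59), collagens (-0.78 to 1.84) and vitellogenins (-0.68 to 1.80) changed sign with 1 library left out. Groups did not overlap upwards in 5 of 25 muscle genes, 4 of 24 intestine genes, 3 of 36 collagens, 8 of 51 neuronal genes, 1 of 5 vitellogenins and 0 of 6 immune genes, against 58.4% of all genes. No member of any list was called shorter.

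Some somatic genes were deeply read. The yolk gene vit-2 (chromosome X: 5101012 to 5106047), made in the intestine, had 33.1 and 32.7 nt in control and 34.6 and 32.5 nt in ccf-1 RNAi on 7312 to 28438 tailed reads. Its change was 0.65 ± 2.51 nt (adjusted p = 0.88), with overlapping groups. The collagen gene col-122 had 34.5 and 38.1 nt against 41.3 and 40.6 nt (4.66 ± 3.23 nt, adjusted p = 0.33), on 1766 to 6066 reads. The troponin I gene unc-27 had 44.8 and 30.7 nt against 34.8 and 29.9 nt, with a wide gap between its controls and overlapping groups. Apart from these lay act-2, an actin gene listed under muscle but used in many cells, with 38.3 and 34.8 nt against 45.1 and 46.7 nt (adjusted p = 0.063). The somatic gonad list, with 7 genes tested, had a median of 9.48 nt (3.89 nt after centring) that fell to 3.65 nt in the lowest of the alternative fits without centring. Its called gene, the innexin inx-22 (19.4 and 26.8 against 31.9 and 35.0 nt), is a germline gap junction subunit of oocytes.

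**Figure D3:**
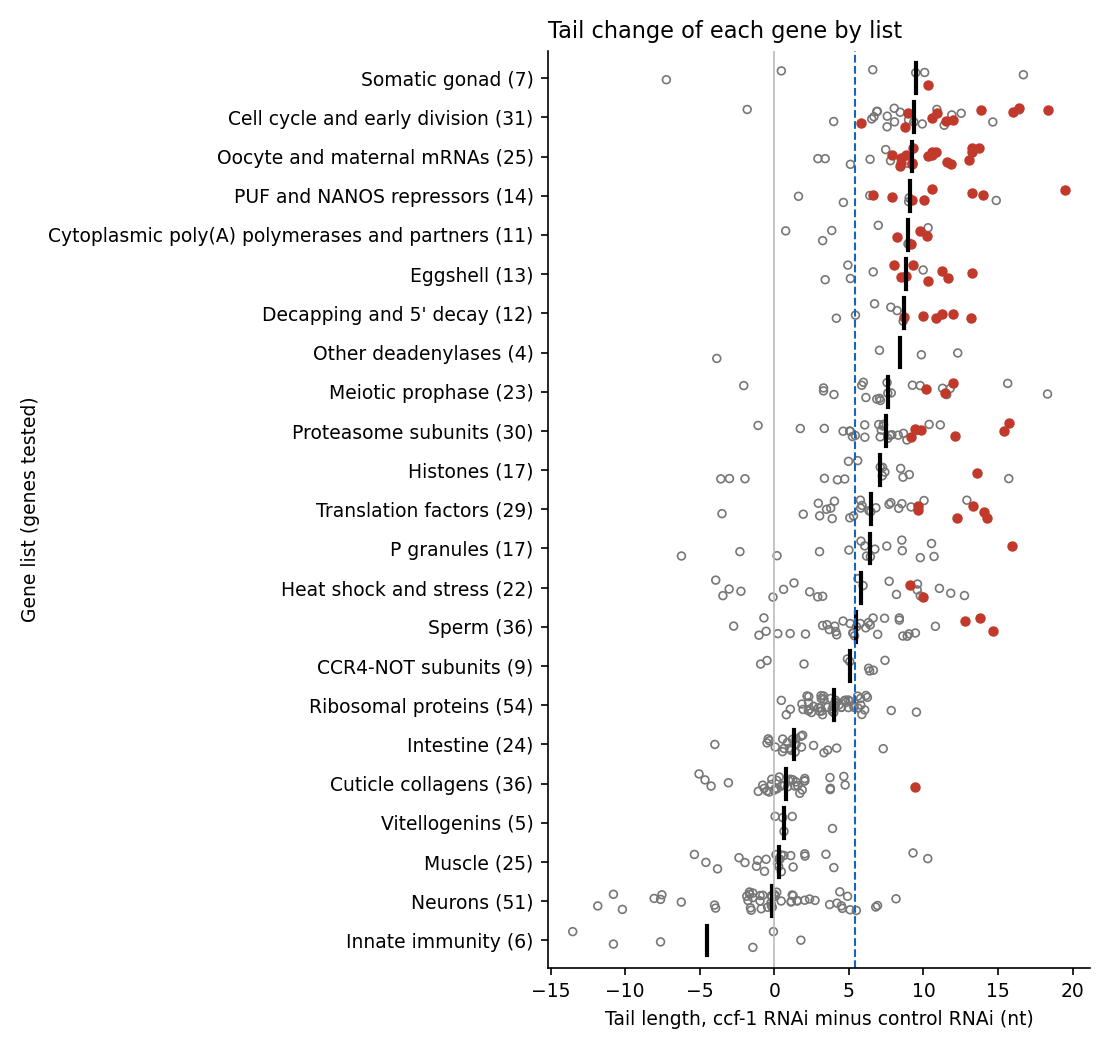
Change in tail length (ccf-1 RNAi minus control RNAi, nt) of each tested gene, by list; filled red points passed limma's test, open points did not, black bars are list medians, and the dashed line is the median over all genes tested (5.44 nt). Lists with 4 or more genes tested are drawn. Those of oocyte, translational repressor, eggshell, cell cycle, poly(A) polymerase and decapping genes have medians near 9 nt. The highest median is that of the somatic gonad list (9.48 nt, 7 genes), and that of the other deadenylases is 8.46 nt. Muscle, intestine, neuron, collagen and vitellogenin medians lie near 0.

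The tail changes were also set against measures from libraries outside the comparison and against chromosome. Genes were split into 6 equal bins by the ratio of their level in N2 embryos at the earliest cleavage stages to that in N2 adults (log2, 1 CPM added). The embryo and adult libraries come from different runs, so stage and run cannot be told apart in this ratio. In the lowest bin the median tail change was 1.84 nt and 3.17% rose, and in the fifth it was 6.70 nt and 25.0%, before 5.75 nt and 18.9% in the highest bin. Split by chromosome, the medians lay between 4.23 nt (V) and 6.36 nt (I) on the autosomes and at 2.13 nt on X, where 44 of 720 genes rose (6.11%) and 33.3% did not overlap upwards. Split by tail length in the gld-2 adults of the earlier run, the bin of shortest tails (up to 27.88 nt) had a median change of 6.59 nt with 31.3% called. The bin of longest tails (from 40.27 nt) had a median of 2.26 nt with 2.4% called. Split by tail length in N2 adults, the medians had no steady order, with 4.17 nt in the bin of shortest tails, 6.38 nt in the third and 4.74 nt in the longest. Split by mean read level in the other 8 RNAi libraries, 5.19% were called in the lowest bin, 23.0% in the fifth and 17.4% in the highest, with medians of 3.86, 6.49 and 5.02 nt. These bins are descriptions, and the measures are not independent of each other.

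Genes with GLD-2-dependent tails had a larger median gain under ccf-1 RNAi than the rest. In the earlier run, which shares no library with the RNAi run, limma called 627 of 8141 genes shorter in gld-2 than in N2 (7.7%). Of these, 594 could be tested in the RNAi run: 330 rose under ccf-1 RNAi, or 55.6%, 0 fell, and 536, or 90.2%, had both ccf-1 libraries above both controls. The remaining 5610 genes tested in both runs had 597 increases, or 10.6%, and 55.2% did not overlap upwards. The median change was 8.97 nt (quartiles 7.01 and 11.22) for GLD-2-dependent genes and 4.92 nt for the rest, and after centring the former was 3.38 nt.

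The levels show the pattern directly. The 594 genes had a median tail of 37.38 nt in N2 and 27.17 nt in gld-2 adults of the earlier run, 26.78 nt in gld-2 on control RNAi and 36.09 nt in gld-2 on ccf-1 RNAi. By library they stood at 27.21 and 26.01 nt in control and 34.19 and 37.44 nt in ccf-1 RNAi. For the remaining genes the 4 values were 36.72, 34.58, 33.76 and 38.88 nt. In the ccf-1 group, 223 of the 594 genes had a mean tail at or above their N2 mean, compared with 12 in the control group. The median gap to N2 was 1.13 nt under ccf-1 RNAi (quartiles -1.42 and 3.56) and 10.13 nt under control RNAi. N2 and the RNAi libraries come from different runs, so these gaps are given side by side and were not tested. Without ccf-1 replicate 2 the median change of these genes was 7.37 nt with 1 called, without ccf-1 replicate 1 it was 10.71 nt with 249 called, and without control replicate 2 it was 8.63 nt with 0 called.

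Of the called increases, 330 of 930 (35.5%) were on genes called shorter in gld-2. Across the 6204 genes tested in both runs, the change in gld-2 against N2 and the change under ccf-1 RNAi had Pearson's r = -0.34 and Spearman's rho = -0.39, as a description over genes, which are not replicates. The set of 594 holds 19 oocyte genes, 12 cell cycle genes, 15 sperm genes, 8 eggshell genes and 7 genes of the repressor list, and no ribosomal protein, vitellogenin, collagen, muscle, intestine or neuron gene. Among the oocyte genes, oma-1 had 42.5 nt in N2 and 26.7 nt in gld-2 adults of the earlier run, and mex-5 had 46.3 and 26.2 nt. For cpg-2 the N2 mean was 32.7 nt and for puf-3 it was 39.1 nt, each above both of its ccf-1 libraries. The fzy-1 gene, which was not called shorter in gld-2, had 43.0 nt in N2, below its 45.4 and 47.7 nt under ccf-1 RNAi.

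**Figure D4:**
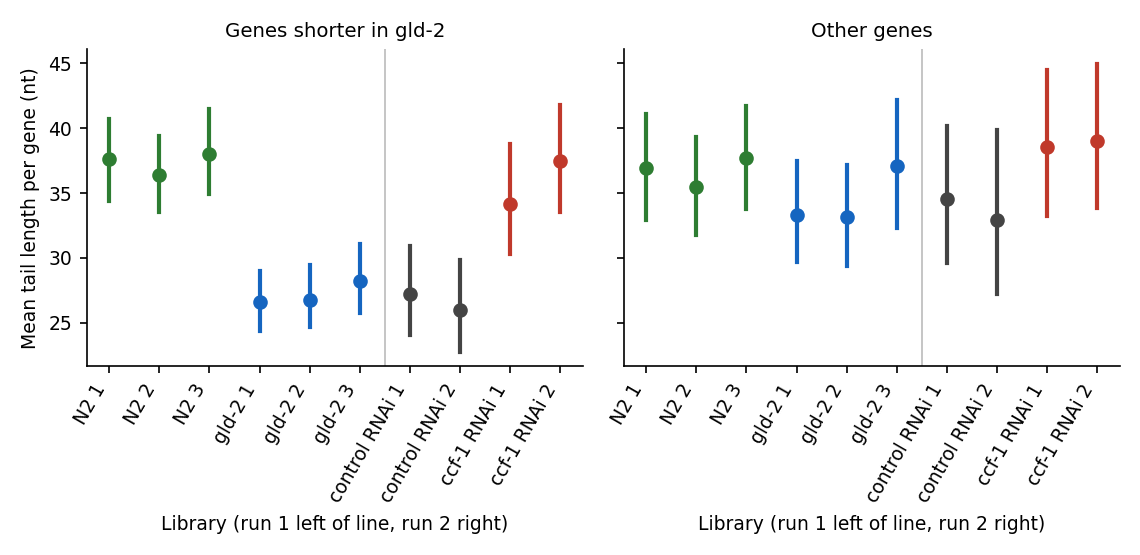
Tail length in nt over genes called shorter in gld-2 in the earlier run (left) and over the other genes tested in both runs (right), in each N2, gld-2, control RNAi and ccf-1 RNAi library; points are medians over genes, bars are quartiles, the vertical axis does not start at 0. In the left panel the control RNAi libraries (27.21 and 26.01 nt) lie at the level of gld-2 adults, and the ccf-1 libraries (34.19 and 37.44 nt) lie far above them.

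The 10 largest called increases among named single-gene rows were, in falling order, sir-2.1, metl-9, kin-35, prmt-9, wdr-48, akt-2, popl-1, ebax-1, zhp-4 and flwr-1, from 23.58 to 20.21 nt. Most rest on few reads, and control replicate 2 held 6 to 70 tailed reads of each. The best covered was prmt-9, a protein arginine methyltransferase gene (chromosome IV: 12677775 to 12684355), with 25.6 and 22.2 nt in control and 38.3 and 51.6 nt in ccf-1 RNAi (21.02 ± 3.67 nt, adjusted p = 0.019). The deacetylase gene sir-2.1 had 40.2 and 20.6 nt against 58.7 and 49.3 nt (23.58 ± 6.96 nt, adjusted p = 0.047), with a wide gap between its controls. The meiotic crossover gene zhp-4 had 21.6 and 15.5 nt against 42.5 and 35.3 nt on 6 to 38 reads. The insulin pathway kinase gene akt-2 had 49.5 and 32.1 nt against 57.4 and 65.5 nt.

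Of the 10 genes called shorter, 3 met the naming rule. The gene dct-7 had 41.7 and 40.1 nt in control and 23.6 and 25.0 nt in ccf-1 RNAi (-16.61 ± 3.30 nt, adjusted p = 0.020) on 8 to 57 reads. The gene hmg-11 had 50.1 and 47.0 nt against 34.7 and 31.6 nt (-15.43 ± 3.32 nt, adjusted p = 0.023). The claudin-like gene nsy-4 had 42.3 and 44.5 nt against 32.2 and 33.7 nt (-10.46 ± 2.57 nt, adjusted p = 0.030). The groups did not overlap in any of the 3, and control replicate 2 held 8, 36 and 14 tailed reads of them.

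Set against the 4 other RNAi groups in place of the control, ccf-1 RNAi had a median tail change of 3.69 nt over 7020 genes, with 912 called longer (13.0%) and 14 shorter (0.199%). The contrast shares the ccf-1 libraries with the one above, and 655 genes were called longer in both (70.4% of those longer than control and 71.8% of those longer than the other groups). It made 0 calls without ccf-1 replicate 2 (1264 at an unadjusted p under 0.05) and 352 without ccf-1 replicate 1. For oma-1 the difference was 9.97 nt (limma adjusted p = 0.015), for puf-3 12.01 nt (0.014) and for mat-1 14.07 nt (0.014). By library, the median over the oocyte list was 31.76 and 34.30 nt in ccf-1 RNAi. It ran from 24.75 to 27.76 nt in the 8 libraries labelled ccr-4, parn-1, panl-2 or caf-1 RNAi. The largest differences by the naming rule were in trm-1, sdc-1 and wdr-48 upwards (29.94, 24.63 and 18.89 nt) and in ifa-1, ceeh-1 and clc-6 downwards (-15.03, -14.14 and -11.29 nt).

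On read levels, 0 of 9908 genes passed edgeR's quasi-likelihood test (0.0%; smallest adjusted p = 0.446), while 657 had an unadjusted p under 0.05 (6.63%), 381 of them higher (3.85%) and 276 lower (2.79%). DESeq2 called 8 genes, 3 higher and 5 lower, and edgeR without its filter on low counts called 19. The share of a gene's reads that carry a tail gave 0 calls among 5434 genes (limma, 31 at an unadjusted p under 0.05, or 0.57%), with a median change of -0.15 on the log2 scale of tailed against untailed reads. The 930 genes with called longer tails had a median log2 change in read level of 0.03 (quartiles -0.22 and 0.30), and 26.8% of them lay higher without overlap and 19.6% lower. Over all genes tested for expression those shares were 20.1% and 19.0%, and the median was 0.01. Tails and reads come from the same libraries.

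Ribosomal protein genes had the lowest median read change of the lists. Their counts summed to 267300 and 258900 CPM in control RNAi and to 167000 and 133900 CPM in ccf-1 RNAi. No gene of the list passed the test, but 51 of 54 lay lower without overlap (19.0% of all genes). Of the 54, 23 were lower at an unadjusted edgeR p under 0.05 (2.79% of all genes). The list median was -0.72 (log2), between -0.87 and -0.60 in the alternative fits. The gene rpl-28 had 2130 and 2330 CPM in control and 1410 and 1210 CPM in ccf-1 RNAi (-0.77 ± 0.25, edgeR adjusted p = 0.70). The elongation factor gene eef-2 had 2550 and 1960 CPM against 1450 and 1310 CPM (-0.71 ± 0.25, adjusted p = 0.70). Cuticle collagens lay lower too, with a median of -0.42, and 31 of 63 tested did not overlap (19.0% of all genes). Their median was -0.70 without control replicate 2 and -0.12 without control replicate 1, and they summed to 70950 and 48180 CPM against 45970 and 43110 CPM. The share of ribosomal RNA reads, given above, also lay lower in ccf-1 RNAi. An edgeR fit without the ribosomal RNA rows also gave 0 calls over 9840 genes, with 639 at an unadjusted p under 0.05. Beyond that fit, the part of this share in these values was not tested.

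Oocyte and eggshell lists had positive median read changes, again with no gene past the test. Other germline lists had similar medians: 0.43 (log2) for meiotic prophase, 0.42 for P granules and 0.41 for the translational repressors. In these, 14 of 23, 7 of 18 and 10 of 15 genes lay higher without overlap. The sperm and cell cycle medians were lower, at 0.15 and 0.14. The oocyte list had a median of 0.42 (log2), 18 of 26 lay higher without overlap (20.1% of all genes), and its counts summed to 4481 and 4516 CPM in control and 5504 and 6898 CPM in ccf-1 RNAi. The eggshell list had a median of 0.68, and 9 of 13 lay higher without overlap. Its summed counts did overlap, with 3349 and 4222 CPM against 3814 and 5016 CPM, and its median was 0.33 without ccf-1 replicate 2 and 0.91 without ccf-1 replicate 1. The Wnt gene mom-2 (chromosome V: 8356078 to 8357827), a maternal signal in the early embryo, had 16.8 and 17.8 CPM against 42.2 and 62.3 CPM (1.60 ± 0.28, edgeR adjusted p = 0.45), and it passed with DESeq2 (adjusted p = 0.018). The germline stem cell regulator fbf-1 had 5.66 and 6.08 CPM against 18.7 and 19.6 CPM (1.72 ± 0.31, adjusted p = 0.45; 0.044 with DESeq2). Its near-identical copy fbf-2 had 5.94 and 8.88 CPM against 9.37 and 10.9 CPM, and the counting may divide reads of the pair. The oocyte maturation gene oma-2 had 141 and 125 CPM against 261 and 271 CPM. In mom-2, fbf-1 and oma-2 both ccf-1 libraries lay above both controls.

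**Figure D5:**
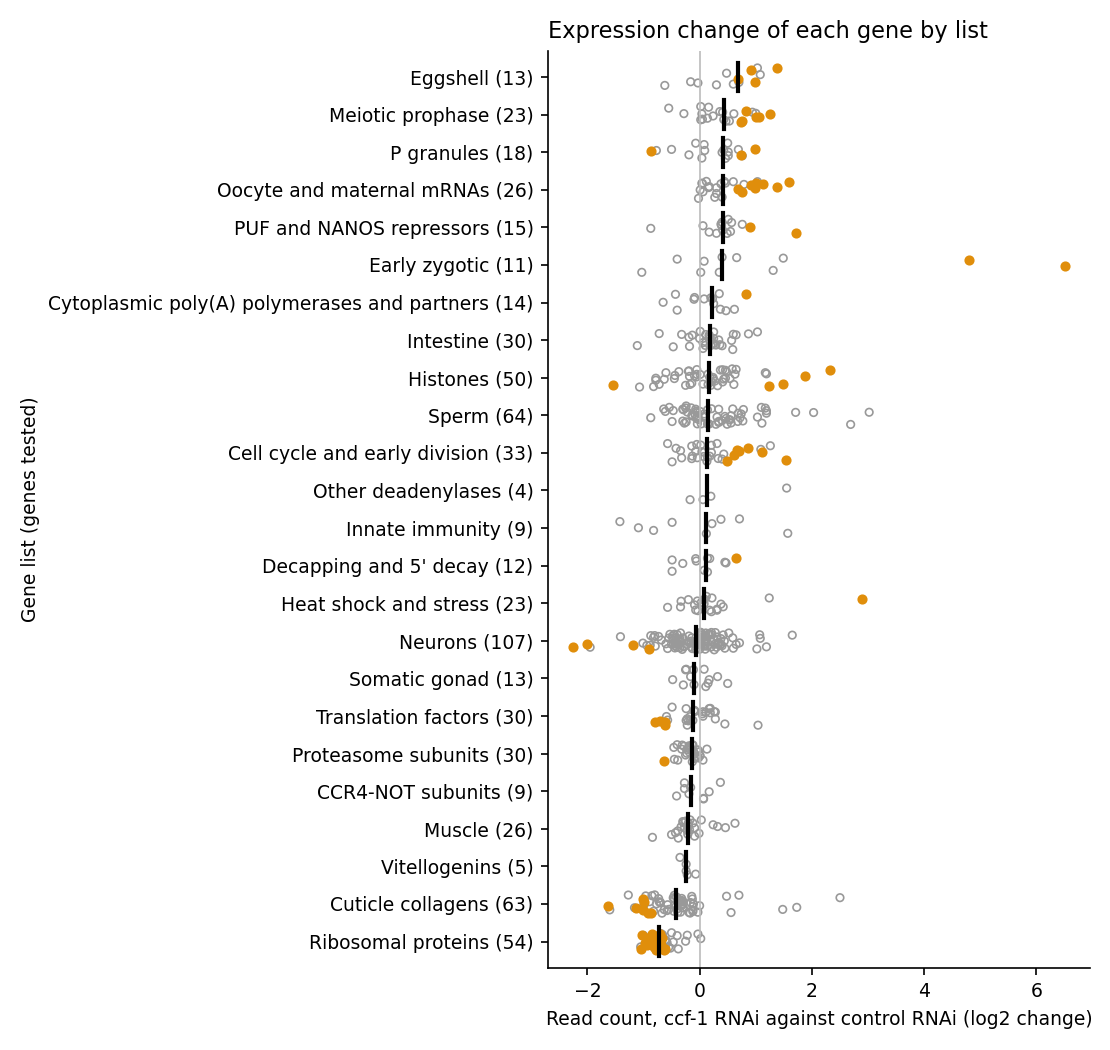
Log2 change in read level (ccf-1 RNAi against control RNAi) of each tested gene, by list; orange points have an unadjusted edgeR p under 0.05, open points do not, and black bars are list medians. No gene passed the adjusted test; the ribosomal protein median is lowest at -0.72 and the eggshell median highest at 0.68.

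Other genes that led by p-value had the same limit. The zinc finger gene flh-1 had 13.3 and 14.0 CPM in control and 31.5 and 36.6 CPM in ccf-1 RNAi, and the cyclin A gene cya-1 had 6.93 and 8.41 CPM against 20.1 and 23.5 CPM (edgeR adjusted p = 0.45 for each). The splicing factor gene rsp-7 had 19.7 and 21 CPM against 51.1 and 45.4 CPM. Lower in ccf-1 RNAi were abhd-5.1 (16.1 and 8.41 against 4.46 and 3.33 CPM), the collagen genes rol-8 (10.5 and 5.14 against 2.01 and 1.54 CPM) and col-158 (38.7 and 38.8 against 18.1 and 17.2 CPM), zip-8 and mfsc-1. All of these groups stood apart without overlap, and the smallest adjusted p among the lower genes was 0.54. Marker lists of muscle, intestine, neurons and somatic gonad had median read changes between -0.21 and 0.18 (log2), and vitellogenins, summing to 29460 and 28910 CPM in control and 26440 and 23720 CPM in ccf-1 RNAi, had -0.24 (-0.34 to -0.13 in the alternative fits). Markers of early zygotic transcription summed to 20.93 and 22.43 CPM against 36.36 and 43.97 CPM, with a median of 0.40 over 11 genes, which was 1.23 without control replicate 2. The list's gene of smallest p, vet-2, had no read in either control and 1.78 and 1.31 CPM in ccf-1 RNAi, and its only gene tested for tails, tbx-9, had overlapping groups (11.7 and 17.4 against 7.0 and 14.9 nt). The part of embryos or of oocyte number in these read levels was not tested.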

How the data were processed

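The deposited tables hold raw read counts, counts of tailed reads and mean tail lengths (nt) per gene row, per the file headers. Bowtie, Bowtie2 2.2.4 and the build ce10 are listed in the submitters' processing notes; no source used here names the counting tool. Multiplying each length by its tailed reads gave a whole number, within 0.01, for 100.0% of values. Of 31753 rows, 3657 merge several gene names; names came from reference tables of another build, with 29111 rows matched by accession. No sequence was used.

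Tail lengths were tested untransformed with limma 3.58.1 (trend and robust) in R 4.3.3. Lengths on fewer than 5 tailed reads were set to missing; genes were tested with a mean of 20 or more tailed reads and 2 values in each group compared. The 12 RNAi libraries shared 1 fit, as they did for counts in edgeR 4.0.16 (TMM, filterByExpr, robust quasi-likelihood test; DESeq2 1.42.0 as alternative). CPM values use TMM-scaled library sizes. Tailed share was tested with limma on log2 of tailed against untailed counts, 0.5 added to each, for genes with a mean count of 50 and at least 10 per library compared. Calls used an adjusted p under 0.05 (Benjamini-Hochberg). Genes named were ccf-1 and the other deadenylase genes, the 10 largest called changes per direction with groups apart, 1 gene per row and a locus name, the 5 of smallest p where fewer than 5 were called, up to 4 genes per list of smallest adjusted p, and the 3 largest per direction against the other RNAi groups; gld-2, fbf-2 and mex-6 were added after their values were seen. The members and the 24 gene lists were chosen with earlier results of these data known. A merged row stays in a list only if all its names are on it, a choice made after seeing the data. Alternatives covered filters, scale, centring, weights, block, samples in the fit and each replicate left out; where a group kept 1 library, it was assumed to vary like the others.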

Additional observations from a re-analysis of the deposited data

How the results depend on the processing

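Of the 940 tail calls (930 longer, 10 shorter), 0 were left with centred libraries (1049 at an unadjusted p under 0.05), 0 in a fit of only the 4 libraries (1875), 0 with no minimum of tailed reads (2292), and 0 to 545 with 1 of the 4 libraries left out. Centring together with leaving out control replicate 2, added after seeing the data, also gave 0 (658). Other settings gave 679 (log2 lengths), 816 (without the panl-2 RNAi libraries), 912 (weights) and 1403 (higher minimum of tailed reads); a variance trend on tailed reads, added after seeing the data, gave 1372. The median change of 5.44 nt was -0.15 when centred, which subtracts the shift by construction, 0.15 when centred without control replicate 2, and 4.79 to 6.28 with 1 library left out. Against the other RNAi groups, 926 calls became 542 on the log2 scale, 0 when centred (1462 at an unadjusted p under 0.05) and 0 to 352 with a ccf-1 library left out, and the median of 3.69 nt became -0.19 when centred. For the GLD-2-dependent genes the median of 8.97 nt was 3.38 when centred, 7.37 to 10.71 with 1 library left out, and 9.98 for the 287 genes shorter by more than 10 nt in the earlier run. Expression went from 0 calls to 8 with DESeq2 and 19 with no filter on low counts; the tailed share stayed at 0 in the alternatives run. The cause of these differences was not tested. The labels do not say what a replicate number shares, and the numbers were not taken to pair the samples; same-numbered deviations correlated at -0.01 for tails and 0.12 for expression in these 2 groups, and between -0.03 and 0.17 and between -0.17 and 0.41 over the 15 pairs of RNAi groups. With replicate number as a block, tails gave 1192 calls, the other-group contrast 1062, and expression 0. Control replicate 2 had the fewest tailed reads of the 4 libraries, 1.18 M.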
